A study of Homo sapiens with 12 samples.

Results

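The transcripts of 56 genes of DNA replication were followed in EA.hy926, an established human hybrid line of endothelial character, obtained from umbilical vein endothelium and A549 lung carcinoma cells. The genes were taken from a list of factors that mark, open, copy and rewrap replicating DNA. This list was chosen with earlier results of these data known. All 56 had a probe set with a single gene symbol among the 18417 genes measured. For a gene with several such probe sets, here CLSPN and UHRF1, the brightest by mean over the arrays stood for the gene. Hi cells grew at 9 uM folic acid in M199 medium. Lo cells had been adapted in parallel to growth at 23 nM, the level without the supplement, and all media held 10% fetal calf serum. After a change of medium and 24 h, confluent cultures of both kinds received 0.5 uM pemetrexed for 48 h or served as controls. This gave 4 groups of 3 biological replicates, Hi control, Hi pemetrexed, Lo control and Lo pemetrexed, with total RNA of each replicate on 1 array. All 12 arrays came from a single hybrid line, and Hi and Lo cells were cultures kept apart, so that any further difference between these cultures is part of each comparison of Lo with Hi.

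A replication origin is marked by the origin recognition complex (ORC), on which CDC6 and CDT1 load the ring of MCM2 to MCM7, the core of the replicative helicase. In S phase the kinase CDC7 with its activator DBF4 and a set of firing factors add CDC45 and the GINS complex to that ring. Polymerases then copy the opened strands on a sliding clamp that the RFC complex loads, while RPA covers single strands. The antifolate drug pemetrexed blocks thymidylate synthase and enzymes of purine synthesis, and so acts on the supply of the nucleotides that these polymerases use. Many of the genes are transcribed mainly from late G1 into S phase, under control of the E2F factors.

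Levels are the deposited log2 expression values, and a difference of 1 on this scale is a factor of 2. Values of single arrays are given in the order of replicates 1, 2 and 3, differences are followed by the standard error of the model after ±, and calls were made where limma's two-sided p, adjusted over all 18417 genes by Benjamini-Hochberg, was under 0.05. Levels of different genes are not comparable with each other on this scale, since each probe set has its own response. Over all 33297 probe sets, medians of single arrays ran from 7.24 to 7.33. On the first principal component, which held 61.1% of the variance, Lo pemetrexed stood at 30.4 to 32.2 and all but 1 of the Hi arrays between -20.1 and -17.8. The exception, labelled Hi control replicate 3, was at 8.94 near Lo control replicates 1 and 2 (7.18 and 6.75). At -19.3, among the Hi arrays, stood the one labelled Lo control replicate 3. Both kept their labels, and the counts below are also given without them, from 10 arrays. All 8 endothelial markers examined lay, in the mean over the arrays, above the median of all values of the 18417 genes. Of 5 epithelial and A549 markers 2 did, KRT8 and KRT18, at group means of 11.61 to 11.92 and 11.72 to 11.79. EPCAM, at 5.46 to 5.84, AKR1B10, at 5.67 to 8.49, and AKR1C1, at 7.53 to 7.91, did not. Of 5 fibroblast markers 1 did, COL1A1, at 8.27 to 8.32. None of 3 leukocyte markers did, PTPRC being at 4.09 to 4.16, CD3E at 5.84 to 5.99 and CD14 at 6.99 to 7.08.

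In folate-restricted cells most of the 56 listed replication genes fell under pemetrexed, and none was called higher. Of the 56 genes, 33 were lower in Lo pemetrexed than in Lo control arrays and 0 were higher (limma, Benjamini-Hochberg), which is 58.9% of them, where 5.14% of all genes tested were called lower and 5.6% higher. The median of the 56 changes was -0.55, against 0.02 over all genes, and 54 of the 56 were below 0. TOP2A, the topoisomerase that untangles replicated chromosomes, had the largest change (-1.69 ± 0.13, 3.23-fold lower), followed by the helicase subunit MCM6 (-1.68 ± 0.13, 3.2-fold lower) and the helicase cofactor GINS2 (-1.49 ± 0.12). In all, 10 genes fell at least 2-fold, UHRF1 among them by its brightest probe set. The sliding clamp PCNA (0.16 ± 0.10), the DNA ligase LIG1 (0.00 ± 0.09), the firing factor TICRR (0.00 ± 0.16) and GINS4 (0.12 ± 0.16) did not pass the test. Without the 2 control arrays out of place, 35 genes were lower and 0 higher (5.74% and 5.21% of all genes), and 32 genes were called lower in both fits. The changes then ran from -1.83 to 0.15 with a median of -0.58. With the replicate number as a block in that fit 45 were lower and 0 higher (9.99% and 8.39% of all genes). The 12 genes called there and not with 12 arrays were ORC2, ORC6, CDC6, GMNN, POLA2, PRIM2, POLD3, RFC1, RFC2, RFC3, TIPIN and DTL. In RNA of a whole culture, fewer cells in S phase and less RNA per cell cannot be told apart.

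**Figure D1:**
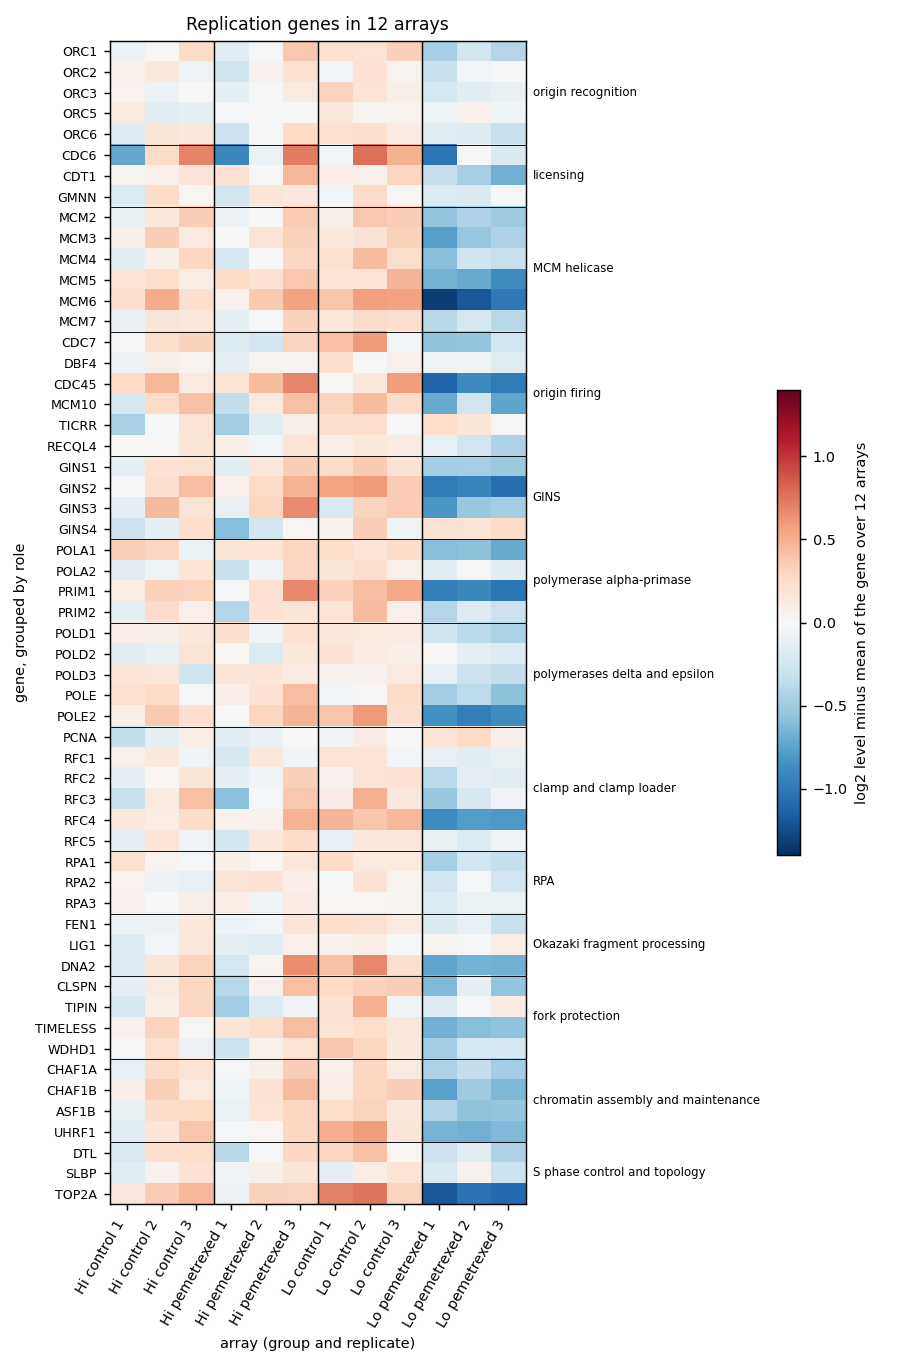
The heat map shows each of the 56 replication genes (rows, grouped by role) on each of the 12 arrays (columns), as the log2 level minus the mean of that gene over all arrays, blue for below and red for above. The Lo pemetrexed columns are blue for most rows, while GINS4, PCNA and TICRR are above their own mean there.

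Every Lo pemetrexed array lay below every Lo control array for 44 of the 56 genes, where 14.1% of all genes were separated in that direction, and above for 0, where 15.7% of all genes were. For 30 genes the Lo pemetrexed arrays lay below all 9 other arrays, which held for 8.78% of all genes. Of the 8 endothelial markers, 4 were also called lower in Lo pemetrexed (CDH5, ERG, TEK and EGFL7), with summed levels of 82.3 to 83.4 against 86.20, 85.96 and 90.84 in Lo control replicates 1 to 3. With 10 arrays PECAM1 was called lower as well (-0.41 ± 0.08, limma adjusted p = 0.00654), 5 of the 8. For the 5 epithelial and A549 markers 0 were called, with sums of 45.4 in Lo pemetrexed and 44.66, 44.39 and 42.52 in Lo control. AKR1B10, an aldo-keto reductase of that list, was at 1.74 ± 0.59 with 12 arrays (3.34-fold, limma adjusted p = 0.084), and was called higher with 10 (1.14 ± 0.28, limma adjusted p = 0.02). For 5 fibroblast markers 0 were called as well, with sums of 30.3 to 30.7 and 30.4 to 30.6, and none of 3 leukocyte markers was called, with sums of 17.0 to 17.2 in Lo pemetrexed and 16.9 to 17.2 in Lo control. The part of these marker shifts in the replication result was not tested.

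**Figure D2:**
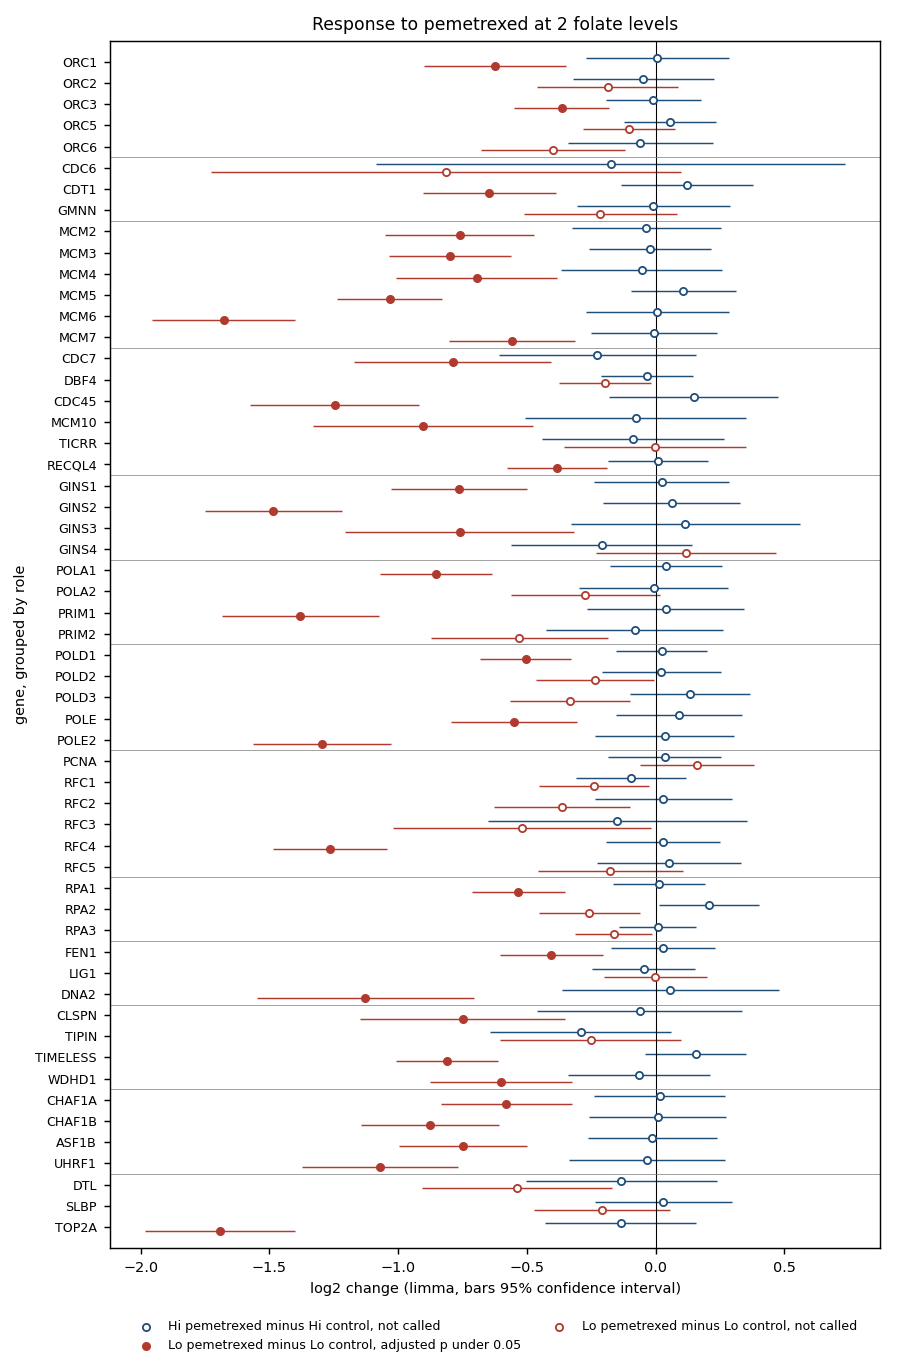
The plot gives the log2 change of each replication gene (rows, grouped by role) between pemetrexed and control arrays, in Lo cells in red and in Hi cells in blue, with bars for the 95% confidence interval and filled points for genes called at an adjusted p under 0.05. All 33 filled points are red and left of 0, and no blue point is filled.

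The 56 listed genes, called or not, were also compared in their promoters. These were read from RefSeq as the 250 bases before to 50 bases after each gene's start in GRCh38.p14. Of the 56 genes, 48 matched an entry. The E2F word, written as any of TTTCCCGC, TTTCGCGC, TTTGCCGC and TTTGGCGC on either strand, was in 20 of the 48 windows (41.7%), and in 4.52% of the 14239 promoters of genes measured here and 3.33% of all 27305 promoters of the table. It was in 14 of 29 windows of genes that fell in Lo cells (48.3%) and in 6 of 19 windows of genes not called there (31.6%). The word CCAAT, on either strand, was in 29 of the 48 windows (60.4%) and in 36.3% of promoters of measured genes. The word TTTGAA, the core of the CHR element of genes of late cell cycle phases, was in 3 of the 48 (6.25%), against 11.9%. A match is a description of the letters in this window only.
Of the 10 genes that fell at least 2-fold 8 matched a window, and 4 of these held the E2F word.
The next 8 windows are shown for the 5 largest decreases (TOP2A, MCM6, GINS2, PRIM1, POLE2), a helicase subunit with its words at the start site (MCM2), and genes with the word that were not called (PCNA, LIG1). Each reads 5′ to 3′ on the gene's strand, with the E2F words in capitals, except in TOP2A, where the capitals mark TTTGAA in either orientation, and PRIM1, where they mark CCAAT. TOP2A and PRIM1 hold no E2F word in the window.
MCM6 (chr2:135876394-135876693, minus strand): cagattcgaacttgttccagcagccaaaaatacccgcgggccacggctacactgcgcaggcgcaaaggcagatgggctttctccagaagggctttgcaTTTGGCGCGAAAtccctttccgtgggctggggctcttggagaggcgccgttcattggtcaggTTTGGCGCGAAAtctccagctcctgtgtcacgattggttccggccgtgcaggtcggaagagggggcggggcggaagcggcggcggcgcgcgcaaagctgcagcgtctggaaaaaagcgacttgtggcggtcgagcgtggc
MCM2 (chr3:127598161-127598460, plus strand): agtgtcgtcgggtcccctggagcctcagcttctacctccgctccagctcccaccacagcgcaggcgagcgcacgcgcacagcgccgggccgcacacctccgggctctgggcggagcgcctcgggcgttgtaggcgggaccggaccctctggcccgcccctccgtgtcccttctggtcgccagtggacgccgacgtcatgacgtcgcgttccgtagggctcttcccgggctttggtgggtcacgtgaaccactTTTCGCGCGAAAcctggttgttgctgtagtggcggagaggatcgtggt
GINS2 (chr16:85688905-85689204, minus strand): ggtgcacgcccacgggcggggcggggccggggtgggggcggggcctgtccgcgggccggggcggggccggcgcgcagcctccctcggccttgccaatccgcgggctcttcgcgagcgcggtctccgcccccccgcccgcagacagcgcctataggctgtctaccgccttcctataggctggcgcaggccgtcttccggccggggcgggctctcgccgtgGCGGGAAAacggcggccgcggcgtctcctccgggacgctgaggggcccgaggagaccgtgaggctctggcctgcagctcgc
PRIM1 (chr12:56752274-56752573, minus strand): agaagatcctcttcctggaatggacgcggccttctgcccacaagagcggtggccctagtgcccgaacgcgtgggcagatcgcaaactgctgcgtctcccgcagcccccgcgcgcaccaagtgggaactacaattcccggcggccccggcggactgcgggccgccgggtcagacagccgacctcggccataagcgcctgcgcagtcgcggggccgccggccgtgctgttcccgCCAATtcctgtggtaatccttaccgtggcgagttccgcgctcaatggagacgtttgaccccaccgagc
POLE2 (chr14:49688165-49688464, minus strand): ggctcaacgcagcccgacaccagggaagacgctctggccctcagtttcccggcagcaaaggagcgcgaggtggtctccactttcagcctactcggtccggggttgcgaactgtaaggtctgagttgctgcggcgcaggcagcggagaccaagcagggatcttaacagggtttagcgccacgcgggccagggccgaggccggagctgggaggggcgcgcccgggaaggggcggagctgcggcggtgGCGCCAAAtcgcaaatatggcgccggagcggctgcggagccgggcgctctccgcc
TOP2A (chr17:40417847-40418146, minus strand): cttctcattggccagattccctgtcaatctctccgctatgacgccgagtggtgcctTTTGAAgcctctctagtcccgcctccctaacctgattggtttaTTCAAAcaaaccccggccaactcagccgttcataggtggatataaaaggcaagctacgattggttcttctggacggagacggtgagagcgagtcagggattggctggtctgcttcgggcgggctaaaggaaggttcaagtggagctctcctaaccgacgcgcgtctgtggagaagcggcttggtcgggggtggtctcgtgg
PCNA (chr20:5126573-5126872, minus strand): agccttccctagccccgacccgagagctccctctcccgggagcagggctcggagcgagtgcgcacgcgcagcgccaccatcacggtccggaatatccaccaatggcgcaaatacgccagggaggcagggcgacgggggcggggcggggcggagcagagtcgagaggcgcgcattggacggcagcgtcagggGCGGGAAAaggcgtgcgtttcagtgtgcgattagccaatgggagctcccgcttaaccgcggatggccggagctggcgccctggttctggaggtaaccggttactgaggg
LIG1 (chr19:48170295-48170594, minus strand): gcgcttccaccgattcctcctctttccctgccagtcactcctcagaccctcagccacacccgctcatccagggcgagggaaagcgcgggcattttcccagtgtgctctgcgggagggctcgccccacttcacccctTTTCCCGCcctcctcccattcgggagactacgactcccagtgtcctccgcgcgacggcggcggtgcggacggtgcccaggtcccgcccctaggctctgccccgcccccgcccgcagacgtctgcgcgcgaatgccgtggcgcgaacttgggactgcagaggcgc
In MCM6 the words overlap in pairs, so that each of 2 capital runs holds a word on both strands, and these words begin at -152 and -148 and at -90 and -86, counted from -1 for the base before the start. In MCM2 a word begins at base 3 of the transcript and overlaps with one at base 7. In GINS2 and POLE2 the word begins at -31 and -5, in PCNA at -59 and in LIG1 at -114, and TTTGAA lies at -194 and, reversed, at -151 in TOP2A. CCAAT begins at -18 in PRIM1.

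Of 5 subunits of the origin recognition complex, 2 fell in Lo cells under pemetrexed, ORC1 and ORC3, with a median of -0.37 over the 5. ORC1, the subunit whose amount is known to vary with the cell cycle, read 7.49, 7.61 and 7.83 in Hi control, 7.43, 7.56 and 7.96 in Hi pemetrexed, 7.79, 7.77 and 7.92 in Lo control and 7.11, 7.32 and 7.17 in Lo pemetrexed. All 3 Lo pemetrexed arrays lay below all 9 others, and the change was -0.62 ± 0.13 (limma, Benjamini-Hochberg adjusted p = 0.00775). ORC3, a core subunit, read 10.15, 10.02 and 10.10 in Hi control, 9.96, 10.07 and 10.22 in Hi pemetrexed, 10.40, 10.29 and 10.18 in Lo control and 9.85, 9.93 and 9.99 in Lo pemetrexed. In Lo pemetrexed it was below the Lo controls but overlapped with the Hi pemetrexed arrays, and the change was -0.37 ± 0.09 (limma adjusted p = 0.0157). ORC5, a further core subunit, read 9.65, 9.37 and 9.39 in Hi control, 9.52, 9.53 and 9.52 in Hi pemetrexed, 9.68, 9.56 and 9.58 in Lo control and 9.45, 9.60 and 9.46 in Lo pemetrexed. These groups overlapped, with a change of -0.10 ± 0.08 and a 95% confidence interval of -0.28 to 0.08. ORC2 (-0.19 ± 0.13) and ORC6 (-0.40 ± 0.13) did not pass the test.

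Of the 3 loading factors 1 fell. CDT1, which brings the MCM ring to the origin, read 8.65, 8.67 and 8.78 in Hi control, 8.79, 8.60 and 9.06 in Hi pemetrexed, 8.70, 8.67 and 8.90 in Lo control and 8.27, 8.13 and 7.92 in Lo pemetrexed. Every Lo pemetrexed array was below all others, and the change was -0.65 ± 0.12 (limma adjusted p = 0.00408). CDC6, the partner of ORC in loading, read 8.18, 9.17 and 9.60 in Hi control, 8.003, 8.80 and 9.62 in Hi pemetrexed, 8.87, 9.67 and 9.40 in Lo control and 7.89, 8.90 and 8.70 in Lo pemetrexed. The arrays labelled replicate 1 were the lowest in each of the 4 groups, the groups overlapped, and the change of -0.81 ± 0.42 did not pass (limma adjusted p = 0.276), with an interval of -1.73 to 0.10. In the fit of 10 arrays with the replicate number as a block it was called, with limma adjusted p = 0.00125. GMNN, the geminin gene, whose protein keeps CDT1 from loading origins again, read 7.87, 8.32 and 8.08 in Hi control, 7.80, 8.23 and 8.21 in Hi pemetrexed, 8.02, 8.33 and 8.08 in Lo control and 7.87, 7.86 and 8.04 in Lo pemetrexed. Its groups overlapped and its change was -0.22 ± 0.14 (limma adjusted p = 0.397).

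All 6 subunits of the MCM2 to MCM7 ring fell, by unequal amounts, with a median of -0.78. MCM6 read 8.97, 9.25 and 8.96 in Hi control, 8.79, 9.10 and 9.30 in Hi pemetrexed, 9.12, 9.30 and 9.30 in Lo control and 7.42, 7.54 and 7.72 in Lo pemetrexed. The 3 Lo pemetrexed arrays were more than 1 unit below every other array, and the change ranked 15 by p among 18417 genes (limma adjusted p = 1.37e-05). MCM5 read 9.71, 9.77 and 9.63 in Hi control, 9.80, 9.72 and 9.90 in Hi pemetrexed, 9.70, 9.72 and 9.99 in Lo control and 8.86, 8.82 and 8.64 in Lo pemetrexed. Again the treated Lo arrays lay below all 9 others, with a change of -1.03 ± 0.09 (limma adjusted p = 3.87e-05). MCM4 had the weakest evidence of the 6, at 9.24, 9.50 and 9.69 in Hi control, 9.17, 9.41 and 9.69 in Hi pemetrexed, 9.62, 9.86 and 9.65 in Lo control and 8.81, 9.13 and 9.10 in Lo pemetrexed. Even here the Lo pemetrexed arrays were below all others, with a change of -0.70 ± 0.14 (limma adjusted p = 0.00829). MCM3 (-0.80 ± 0.11), MCM2 (-0.76 ± 0.13) and MCM7 (-0.56 ± 0.11) lay between or beside these, so the smallest of the 6 changes was that of MCM7 (1.47-fold) and the largest that of MCM6 (3.2-fold).

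Of the 6 factors of origin firing outside GINS, 4 fell. CDC45, the helicase cofactor that joins MCM and GINS at the fork, read 9.65, 9.82 and 9.50 in Hi control, 9.55, 9.81 and 10.04 in Hi pemetrexed, 9.38, 9.52 and 9.95 in Lo control and 8.25, 8.47 and 8.39 in Lo pemetrexed. All Lo pemetrexed arrays were below all others, and the change was -1.25 ± 0.15 (limma adjusted p = 0.000269). MCM10, which is needed to activate the loaded helicase, read 8.35, 8.85 and 8.99 in Hi control, 8.24, 8.71 and 9.00 in Hi pemetrexed, 8.89, 9.02 and 8.83 in Lo control and 7.87, 8.31 and 7.84 in Lo pemetrexed. The treated Lo arrays lay below the Lo controls but 1 of them lay above Hi pemetrexed replicate 1, and the change was -0.90 ± 0.20 (limma adjusted p = 0.011). The kinase CDC7 fell (-0.79 ± 0.18), while its activator DBF4 did not pass (-0.20 ± 0.08). The helicase gene RECQL4 fell by less (-0.38 ± 0.09). TICRR, also called treslin, which brings CDC45 to origins, read 9.29, 9.71 and 9.92 in Hi control, 9.26, 9.57 and 9.83 in Hi pemetrexed, 9.96, 9.98 and 9.72 in Lo control and 9.98, 9.91 and 9.75 in Lo pemetrexed. The Lo pemetrexed arrays overlapped with the Lo controls, and the change of 0.00 ± 0.16 had an interval of -0.36 to 0.35.

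Of the 4 subunits of GINS, which acts in the moving helicase, 3 fell and GINS4 was not called. GINS2 read 10.44, 10.67 and 10.88 in Hi control, 10.52, 10.72 and 10.94 in Hi pemetrexed, 11.00, 11.04 and 10.81 in Lo control and 9.47, 9.53 and 9.39 in Lo pemetrexed. The treated Lo arrays lay at least 0.91 below all others, with limma adjusted p = 1.72e-05. GINS1 read 10.27, 10.61 and 10.62 in Hi control, 10.25, 10.56 and 10.75 in Hi pemetrexed, 10.67, 10.77 and 10.61 in Lo control and 9.93, 9.94 and 9.89 in Lo pemetrexed. The Lo pemetrexed arrays were again below all others, with a change of -0.76 ± 0.12 (limma adjusted p = 0.00159). GINS3 fell by a like amount with more spread (-0.76 ± 0.21), and it was not called with 10 arrays (-0.66 ± 0.23, limma adjusted p = 0.0924). GINS4 read 7.23, 7.39 and 7.74 in Hi control, 6.92, 7.26 and 7.55 in Hi pemetrexed, 7.57, 7.87 and 7.45 in Lo control and 7.72, 7.72 and 7.80 in Lo pemetrexed. In Lo pemetrexed it overlapped with the Lo controls and lay above every Hi pemetrexed array, with a change in Lo cells of 0.12 ± 0.16 and an interval of -0.23 to 0.47.

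**Figure D3:**
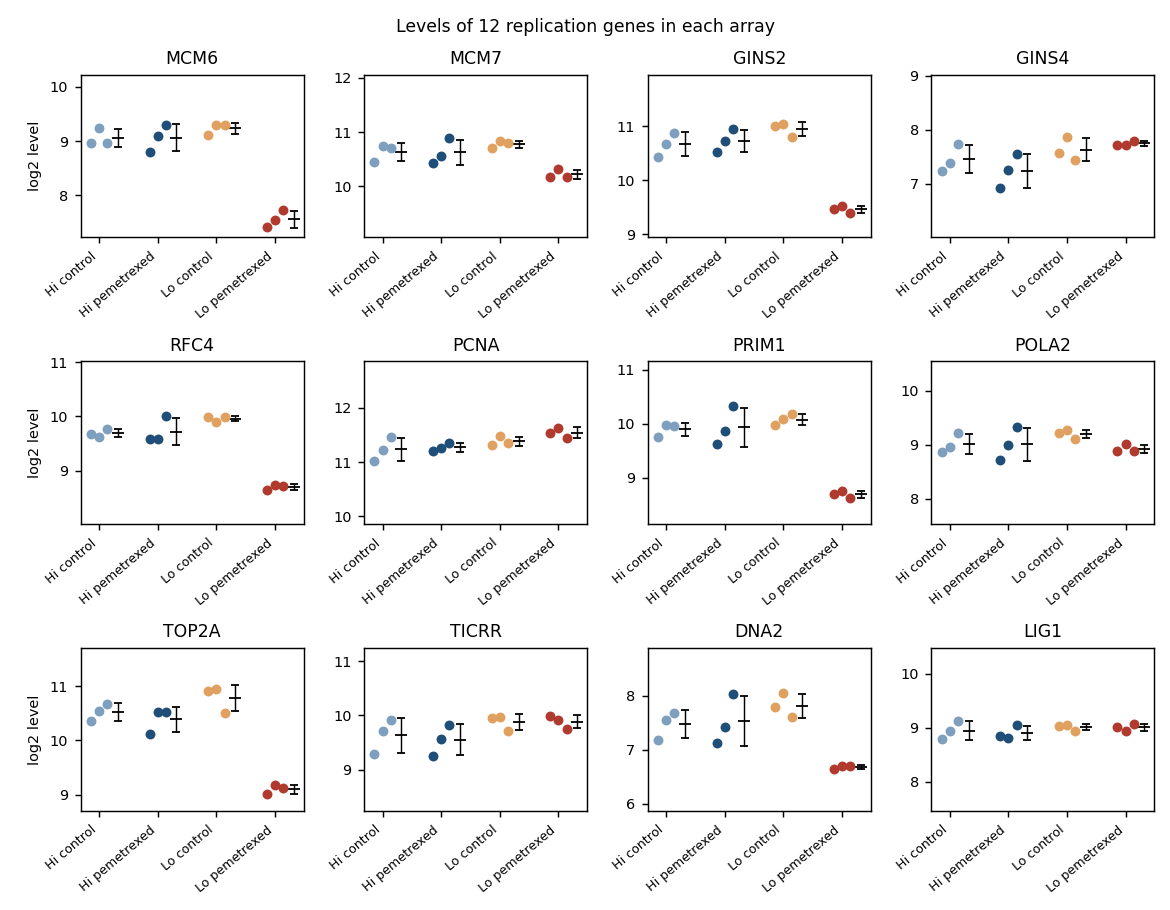
The panels show the log2 level of 12 replication genes on every array (points, replicates 1 to 3 from left to right in each group), with the group mean and SD beside them (n = 3), each on an axis 3 log2 units high. MCM6, GINS2, RFC4, PRIM1, TOP2A and DNA2 drop in Lo pemetrexed, MCM7 by less, and GINS4, PCNA, POLA2, TICRR and LIG1 were not called.

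Of 4 genes of polymerase alpha and primase, which start each new strand, 2 fell. PRIM1, the catalytic primase subunit, read 9.75, 9.97 and 9.96 in Hi control, 9.62, 9.86 and 10.32 in Hi pemetrexed, 9.97, 10.08 and 10.18 in Lo control and 8.70, 8.75 and 8.63 in Lo pemetrexed. In Lo pemetrexed it was below all other arrays, with a change of -1.38 ± 0.14 (limma adjusted p = 7.41e-05). POLA1, the catalytic polymerase subunit, read 8.67, 8.63 and 8.25 in Hi control, 8.51, 8.53 and 8.64 in Hi pemetrexed, 8.59, 8.52 and 8.59 in Lo control and 7.75, 7.77 and 7.63 in Lo pemetrexed. The same order held, with a change of -0.85 ± 0.10 (limma adjusted p = 0.000219). POLA2, the second subunit of the polymerase, read 8.87, 8.96 and 9.22 in Hi control, 8.72, 8.99 and 9.33 in Hi pemetrexed, 9.21, 9.26 and 9.11 in Lo control and 8.88, 9.01 and 8.88 in Lo pemetrexed. Its Lo arrays did not overlap between treatments, the treated ones overlapped with both Hi groups, and the change of -0.27 ± 0.13 did not pass (limma adjusted p = 0.245). The large primase subunit PRIM2 was just outside the threshold (-0.53 ± 0.16, limma adjusted p = 0.0512), and inside it with 10 arrays (-0.61 ± 0.18, limma adjusted p = 0.0447).

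Of 5 genes of the polymerases that extend the strands 3 fell, both catalytic subunits and POLE2. POLE2, the second subunit of the leading strand polymerase epsilon, read 9.19, 9.47 and 9.34 in Hi control, 9.11, 9.42 and 9.58 in Hi pemetrexed, 9.51, 9.71 and 9.34 in Lo control and 8.27, 8.16 and 8.24 in Lo pemetrexed. All Lo pemetrexed arrays were below all others, and the change was -1.30 ± 0.12 (limma adjusted p = 5.32e-05). POLD1, the catalytic subunit of the lagging strand polymerase delta, read 8.65, 8.64 and 8.70 in Hi control, 8.78, 8.50 and 8.78 in Hi pemetrexed, 8.71, 8.70 and 8.68 in Lo control and 8.28, 8.18 and 8.11 in Lo pemetrexed. It fell by 1.42-fold (-0.51 ± 0.08, limma adjusted p = 0.00171), with every Lo pemetrexed array below the rest. POLE, the catalytic subunit of epsilon, also fell (-0.55 ± 0.11). POLD2, an accessory subunit of delta, read 10.38, 10.43 and 10.72 in Hi control, 10.56, 10.34 and 10.68 in Hi pemetrexed, 10.73, 10.65 and 10.61 in Lo control and 10.55, 10.39 and 10.35 in Lo pemetrexed. The treated Lo arrays were below the Lo controls but overlapped with both Hi groups, and the change of -0.24 ± 0.11 did not pass. POLD3 was at -0.33 ± 0.11 (limma adjusted p = 0.0687), and was called with 10 arrays (-0.31 ± 0.08, limma adjusted p = 0.0244).

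Of the clamp and its 5 loader subunits 1 fell, RFC4. RFC4 read 9.68, 9.62 and 9.77 in Hi control, 9.58, 9.58 and 10.00 in Hi pemetrexed, 9.99, 9.90 and 9.98 in Lo control and 8.64, 8.73 and 8.71 in Lo pemetrexed. The 3 values in Lo pemetrexed were close together and below all others, and the change of -1.26 ± 0.10 ranked 27 by p among all genes (limma adjusted p = 1.5e-05). RFC2 read 9.49, 9.66 and 9.79 in Hi control, 9.49, 9.57 and 9.96 in Hi pemetrexed, 9.68, 9.81 and 9.82 in Lo control and 9.25, 9.50 and 9.47 in Lo pemetrexed. The Lo arrays did not overlap between treatments, and the change of -0.36 ± 0.12 did not pass (limma adjusted p = 0.0797). RFC5 read 8.74, 9.06 and 8.83 in Hi control, 8.62, 9.03 and 9.13 in Hi pemetrexed, 8.76, 9.03 and 9.03 in Lo control and 8.78, 8.68 and 8.83 in Lo pemetrexed. Its groups overlapped, with a change of -0.18 ± 0.13. RFC1, the large subunit (-0.24 ± 0.10), and RFC3 (-0.52 ± 0.23) did not pass, RFC3 with a wide interval of -1.02 to -0.02. PCNA, the clamp itself and a gene also known as a p53 target, had the highest change of the 56, at 0.16 ± 0.10 with an interval of -0.06 to 0.38. It read 11.03, 11.23 and 11.455 in Hi control and 11.20, 11.25 and 11.36 in Hi pemetrexed. In Lo cells it read 11.31, 11.48 and 11.36 in control and 11.55, 11.64 and 11.447 in pemetrexed. The Lo pemetrexed arrays lay above every Hi pemetrexed array and overlapped with both control groups.

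The single-strand binding complex RPA fell in its largest subunit. RPA1 read 10.17, 10.00 and 9.92 in Hi control, 10.03, 9.98 and 10.12 in Hi pemetrexed, 10.22, 10.09 and 10.09 in Lo control and 9.49, 9.69 and 9.63 in Lo pemetrexed. Every Lo pemetrexed array was below all others, and the change was -0.53 ± 0.08 (limma adjusted p = 0.00138). RPA2 read 7.93, 7.81 and 7.76 in Hi control, 8.07, 8.08 and 7.98 in Hi pemetrexed, 7.85, 8.08 and 7.93 in Lo control and 7.61, 7.87 and 7.61 in Lo pemetrexed. Its Lo groups overlapped through Lo pemetrexed replicate 2, and the change of -0.26 ± 0.09 did not pass (limma adjusted p = 0.0932). RPA3 read 7.60, 7.54 and 7.63 in Hi control, 7.66, 7.48 and 7.66 in Hi pemetrexed, 7.58, 7.58 and 7.59 in Lo control and 7.35, 7.45 and 7.45 in Lo pemetrexed. The Lo pemetrexed arrays were below all others by a small margin, and the change of -0.16 ± 0.07 did not pass (limma adjusted p = 0.175).

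The 3 genes of Okazaki fragment processing ranged from a large decrease to none detected. DNA2, a nuclease and helicase, read 7.19, 7.54 and 7.68 in Hi control, 7.13, 7.42 and 8.03 in Hi pemetrexed, 7.79, 8.05 and 7.60 in Lo control and 6.64, 6.71 and 6.70 in Lo pemetrexed. Lo pemetrexed held the 3 lowest arrays, and the change was -1.13 ± 0.19 (limma adjusted p = 0.00263). FEN1, the flap endonuclease, read 8.82, 8.82 and 9.06 in Hi control, 8.82, 8.87 and 9.09 in Hi pemetrexed, 9.14, 9.12 and 9.04 in Lo control and 8.70, 8.79 and 8.59 in Lo pemetrexed. Lo pemetrexed again held the 3 lowest arrays, by a small margin, with a change of -0.40 ± 0.09 (limma adjusted p = 0.0145). LIG1, which seals the fragments, read 8.79, 8.93 and 9.13 in Hi control, 8.85, 8.82 and 9.04 in Hi pemetrexed, 9.03, 9.06 and 8.95 in Lo control and 9.01, 8.94 and 9.07 in Lo pemetrexed. Its groups overlapped, and the change of 0.00 ± 0.09 had an interval of -0.20 to 0.20.

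Of the 4 fork protection genes 3 fell. TIMELESS, which with TIPIN steadies the fork, read 8.88, 9.14 and 8.84 in Hi control, 9.00, 9.07 and 9.25 in Hi pemetrexed, 9.02, 9.07 and 8.98 in Lo control and 8.16, 8.22 and 8.26 in Lo pemetrexed. All Lo pemetrexed arrays were below all others, with a change of -0.81 ± 0.09 (limma adjusted p = 0.000164). Its partner TIPIN read 9.06, 9.38 and 9.58 in Hi control, 8.80, 9.10 and 9.24 in Hi pemetrexed, 9.49, 9.79 and 9.24 in Lo control and 9.09, 9.27 and 9.40 in Lo pemetrexed. These groups overlapped, and the change of -0.25 ± 0.16 did not pass (limma adjusted p = 0.401). WDHD1, which ties polymerase alpha to the helicase, read 8.67, 8.87 and 8.57 in Hi control, 8.35, 8.72 and 8.84 in Hi pemetrexed, 9.04, 8.95 and 8.80 in Lo control and 8.17, 8.41 and 8.41 in Lo pemetrexed. It was lower in Lo pemetrexed than in Lo control without overlap (-0.60 ± 0.13, limma adjusted p = 0.00903), and overlapped with Hi pemetrexed. CLSPN, the checkpoint mediator claspin, fell by 1.68-fold (-0.75 ± 0.18, limma adjusted p = 0.0201).

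All 4 genes of chromatin assembly and maintenance behind the fork fell, with a median of -0.81. UHRF1, which carries DNA methylation over to new strands, read 10.08, 10.41 and 10.62 in Hi control, 10.21, 10.27 and 10.53 in Hi pemetrexed, 10.74, 10.83 and 10.41 in Lo control and 9.58, 9.56 and 9.62 in Lo pemetrexed. Its Lo pemetrexed arrays were below all others, with a change of -1.07 ± 0.14 (limma adjusted p = 0.000427). CHAF1B, a subunit of the histone chaperone that loads new nucleosomes, read 9.14, 9.38 and 9.18 in Hi control, 8.98, 9.25 and 9.49 in Hi pemetrexed, 9.16, 9.33 and 9.40 in Lo control and 8.29, 8.55 and 8.42 in Lo pemetrexed. The order was the same, with a change of -0.88 ± 0.12 (limma adjusted p = 0.00071). CHAF1A, its partner, read 9.17, 9.56 and 9.47 in Hi control, 9.25, 9.37 and 9.63 in Hi pemetrexed, 9.35, 9.58 and 9.41 in Lo control and 8.85, 8.95 and 8.81 in Lo pemetrexed. It fell by less (-0.58 ± 0.12, limma adjusted p = 0.00713), also without overlap with any other group. ASF1B, a chaperone that hands histones to them, fell by 1.68-fold (-0.75 ± 0.12).

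The last 3 genes serve the control and the topology of S phase. TOP2A read 10.36, 10.55 and 10.67 in Hi control, 10.12, 10.52 and 10.52 in Hi pemetrexed, 10.91, 10.95 and 10.51 in Lo control and 9.01, 9.17 and 9.11 in Lo pemetrexed. Those of Lo pemetrexed lay at least 0.95 below all others (limma adjusted p = 1.48e-05). DTL, which directs CDT1 to degradation in S phase, read 10.14, 10.59 and 10.59 in Hi control, 9.96, 10.32 and 10.64 in Hi pemetrexed, 10.65, 10.76 and 10.37 in Lo control and 10.06, 10.19 and 9.91 in Lo pemetrexed. The Lo groups did not overlap, but the change of -0.54 ± 0.17 did not pass with 12 arrays (limma adjusted p = 0.064), and it was called with 10 (-0.65 ± 0.18, limma adjusted p = 0.0339). SLBP, which binds the stem loop of histone transcripts, read 10.45, 10.68 and 10.81 in Hi control, 10.56, 10.69 and 10.78 in Hi pemetrexed, 10.49, 10.72 and 10.81 in Lo control and 10.40, 10.68 and 10.31 in Lo pemetrexed. Its groups overlapped, with a change of -0.21 ± 0.12.

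Of the genes that fell, some rested on single arrays. Of the 33 called genes, 26 kept their call in each of the 12 fits that left out 1 array. The others were GINS3, CLSPN, CDC7, ORC3, RECQL4, FEN1 and MCM10. GINS3 lost it without Lo control replicate 2 or 3 or any Lo pemetrexed array (limma adjusted p up to 0.124), and CLSPN without Lo control replicate 2 or 3 or Lo pemetrexed replicate 1 or 3 (up to 0.0857). CDC7 lost it without Lo control replicate 2 or Lo pemetrexed replicate 1 (limma adjusted p up to 0.0535), ORC3 without Lo control replicate 1 or Lo pemetrexed replicate 1 (0.0665) and RECQL4 without Lo control replicate 2 or Lo pemetrexed replicate 3 (0.075). FEN1 and MCM10 lost it without Lo pemetrexed replicate 3 (limma adjusted p = 0.0695 and 0.0548).

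In folate-replete cells none of the 56 genes was called under the same treatment. The changes ran from -0.29 (TIPIN) to 0.21 (RPA2), with a median of 0.01. Limma called 0% of all genes in this comparison, in either direction, and 1 of the 56 had an unadjusted p under 0.05, where 1.44% of all genes did. That gene was RPA2 (0.21 ± 0.09), whose Hi pemetrexed arrays lay above the Hi controls. It was the 1 gene of the 56 with Hi groups that did not overlap, higher (2.48% of all genes), and 0 were lower (2.96% of all genes). MCM6 stood at 0.01 ± 0.13 with an interval of -0.27 to 0.29, TOP2A at -0.14 ± 0.13 (-0.43 to 0.16), GINS2 at 0.06 ± 0.12 (-0.20 to 0.33) and CDC45 at 0.15 ± 0.15 (-0.18 to 0.48). These intervals do not reach the changes of the same genes in Lo cells. The median half-width of the 95% interval over the 56 genes was 0.27, not adjusted for the number of genes tested. A call needed more than that, since in Lo cells PRIM2 at -0.53 ± 0.16 and ORC6 at -0.40 ± 0.13 did not pass. Changes of such size in Hi cells could be missed for genes with like errors. With 10 arrays 0 genes were called, 0 of the 56 had an unadjusted p under 0.05, and the changes ran from -0.17 to 0.17.

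The spread in Hi pemetrexed followed the replicates across many of the genes at once. Hi pemetrexed replicate 3 was the highest of its group for 47 of the 56 genes, and replicate 1 the lowest for 45. In Hi control, replicate 1 was the lowest for 37. CDC6 had the widest range, at 8.003, 8.80 and 9.62 in Hi pemetrexed. The median deviation of the 56 genes from their own means was -0.10, 0.06 and 0.29 on the 3 Hi pemetrexed arrays and -0.09, 0.16 and 0.18 on the Hi control arrays. It was 0.19, 0.24 and 0.15 on the Lo control arrays, and -0.43, -0.26 and -0.36 on the Lo pemetrexed arrays. In this median the Lo pemetrexed arrays were below all others.

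Whether the response depended on folate was tested directly as the interaction, the change in Lo cells minus the change in Hi cells. Of the 56 genes 21 had a negative interaction that passed and 0 a positive one (limma, Benjamini-Hochberg), 37.5% of them against 2.24% of all genes negative and 2.57% positive, 4.81% in all. All 21 were among the 33 genes that fell in Lo cells. MCM6 (-1.68 ± 0.18, limma adjusted p = 0.000524), TOP2A (-1.56 ± 0.19), GINS2 (-1.55 ± 0.17), PRIM1 (-1.42 ± 0.20) and CDC45 (-1.39 ± 0.21) had the largest. By role, 4 of the 6 MCM subunits passed (not MCM4 and MCM7), 3 of 5 genes of polymerases delta and epsilon, 3 of 4 of chromatin assembly, and 0 of 5 ORC subunits. For ORC1 the interaction was -0.63 ± 0.18 (limma adjusted p = 0.0673), and for MCM7 -0.55 ± 0.16 (limma adjusted p = 0.0691). So in this fit a difference between the responses was not shown for them, although they were called in Lo cells and not in Hi cells. With the replicate number as a block on the 12 arrays both passed (limma adjusted p = 0.0327 and 0.041). POLE lost its call there (limma adjusted p = 0.0536). With 10 arrays the count was also 21 negative and 0 positive (2.14% and 2.02% of all genes), with 20 genes in both fits. With 10 arrays POLE lost its call (-0.46 ± 0.14, limma adjusted p = 0.111) and FEN1 gained one (limma adjusted p = 0.039). With the replicate number as a block in that fit 37 were negative and 0 positive (4.76% and 4.68% of all genes), ORC1 and MCM7 among them (limma adjusted p = 0.0141 and 0.0222). The counts were 10 and 0 without variance moderation (0.76% and 0.82% of all genes), and 14 and 0 without Lo pemetrexed replicate 3 (1.11% and 1.29%).

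Lo and Hi cells under pemetrexed were also set side by side. Of the 56 genes 29 were lower in Lo pemetrexed than in Hi pemetrexed arrays and 1 was higher, 51.8% and 1.79% of them, where 11% of all genes were lower and 11.3% higher, 22.3% in all. The groups did not overlap for 32 genes that were lower and 2 that were higher, GINS4 and PCNA (18.7% and 18.6% of all genes). This comparison shares its Lo pemetrexed arrays with the first, so the 2 are not independent. The largest differences were those of MCM6 (-1.504 ± 0.13), CDC45 (-1.43 ± 0.15), TOP2A (-1.29 ± 0.13) and GINS2 (-1.26 ± 0.12). Some genes that were not called against the Lo controls were called here, namely RPA2 (-0.34 ± 0.09, limma adjusted p = 0.0153) and POLD3 (-0.40 ± 0.11, limma adjusted p = 0.0178). The 1 higher gene was GINS4 (0.50 ± 0.16, limma adjusted p = 0.0411), whose Lo pemetrexed arrays (7.72, 7.72 and 7.80) all lay above the Hi pemetrexed arrays (6.92, 7.26 and 7.55). PCNA did not pass with 12 arrays (0.27 ± 0.10, limma adjusted p = 0.0776), and with 10 arrays it did (limma adjusted p = 0.0303), as 1 of 2 higher genes. GINS4 was called in 5 of the 12 fits without 1 array, with limma adjusted p up to 0.16 (without Hi pemetrexed replicate 1). RPA2 lost its call without Hi pemetrexed replicate 2 or Lo pemetrexed replicate 1 or 3 (limma adjusted p up to 0.0666), and POLD3 without Hi pemetrexed replicate 2 or Lo pemetrexed replicate 2 or 3 (up to 0.0715).

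Between untreated cells of the 2 folate levels no replication gene was called with 12 arrays. The differences, Lo control minus Hi control, ran from -0.08 (POLE) to 0.34 (DNA2) with a median of 0.14, and 52 of the 56 were above 0, against a median of -0.01 over all genes. In the median deviation of the 56 genes from their own means, Hi control replicate 1 stood at -0.09 and the other control arrays at 0.15 to 0.24. Limma called 0% of all genes, and 3 of the 56 had an unadjusted p under 0.05, where 2.1% of all genes did: RFC4 (0.27 ± 0.10), ORC3 (0.20 ± 0.09) and GINS2 (0.29 ± 0.12). The groups did not overlap for 2 of the 56, ORC3 and RFC4, which were higher (2.14% of all genes), and for 0 that were lower (3.61%). Both arrays out of place are in this comparison, and without them TOP2A (0.48 ± 0.13), GINS2 (0.47 ± 0.12) and UHRF1 (0.54 ± 0.12) were higher in Lo control (limma adjusted p = 0.0467, 0.0433 and 0.0182). That is 3 of 56 higher and 0 lower, against 3.67% and 3.5% of all genes, with a median of 0.19. UHRF1 was here too read on its brightest probe set. With the replicate number as a block in addition, 10 of the 56 were higher and 0 lower, where 6.73% and 6.42% of all genes were. The 10 were CDC6, CDC7, DNA2, GINS2, GINS4, MCM4, RFC3, TIPIN, TOP2A and UHRF1.

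**Figure D4:**
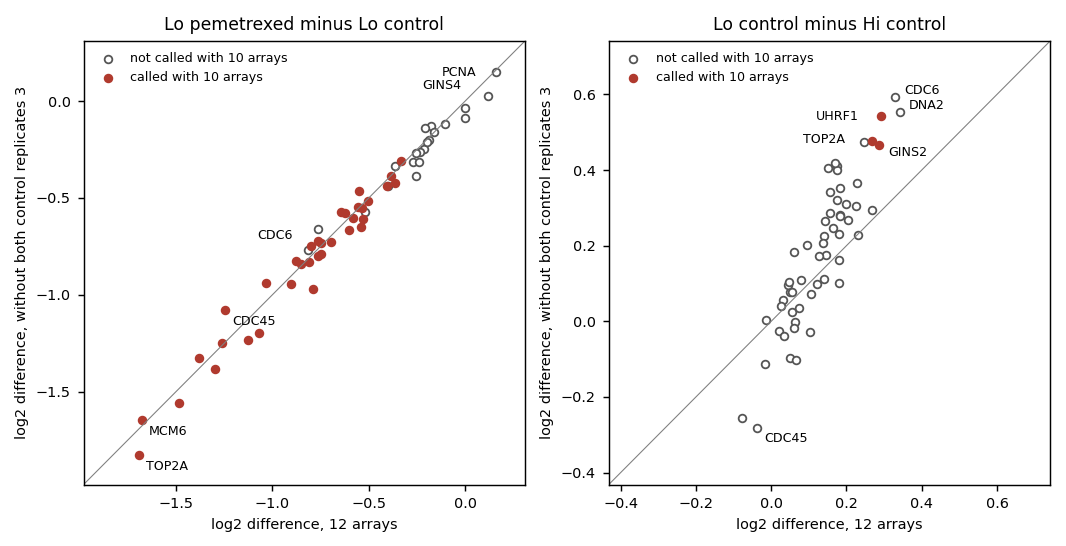
Each point is 1 of the 56 replication genes, with its log2 difference from 12 arrays on the x axis and from 10 arrays, without both arrays labelled control replicate 3, on the y axis; the line marks equal values and filled points were called with 10 arrays. Points of the Lo pemetrexed comparison (left) lie along the line, while in the comparison of controls (right) the range widens from -0.08 to 0.34 with 12 arrays to -0.28 to 0.59 with 10.

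Of 32 further genes of replication outside the 56, 9 fell in Lo cells under pemetrexed and 0 rose (5.14% and 5.6% of all genes), with a median of -0.25. PCLAF, a PCNA-binding factor, had the largest change (-1.52 ± 0.18, limma adjusted p = 0.000236), followed by the ribonuclease subunit RNASEH2A (-0.79 ± 0.08). DSCC1 (-0.68 ± 0.15), a subunit of an alternative clamp loader, and MTBP (-0.68 ± 0.19), a partner of TICRR, also fell. So did the topoisomerase TOP2B (-0.61 ± 0.12), the fork factor DONSON (-0.53 ± 0.09), the firing and checkpoint factor TOPBP1 (-0.45 ± 0.10), LRR1 (-0.34 ± 0.09), which serves helicase unloading, and the histone chaperone RBBP4 (-0.33 ± 0.07). With 10 arrays 8 fell, since MTBP and LRR1 did not pass (limma adjusted p = 0.0524 and 0.0602) and the maintenance methyltransferase DNMT1 did (limma adjusted p = 0.0206). The ORC subunit ORC4 (-0.19 ± 0.11), the small polymerase subunits POLD4 (0.06 ± 0.08), POLE3 (0.14 ± 0.16) and POLE4 (-0.18 ± 0.12), and the topoisomerase TOP1 (0.06 ± 0.07) did not pass. In Hi cells 0 of the 32 were called.

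The called genes were neither brighter nor dimmer than the others in their median. Mean levels ran from 6.96 to 10.87 with a median of 9.28 for the 33 that fell, and from 6.64 to 11.36 with a median of 9.29 for the 23 that were not called. In Hi cells the median change under pemetrexed was 0.01 for the former and -0.03 for the latter. Of the 23 not called, 11 had every Lo pemetrexed array below every Lo control array, where 14.1% of all genes did. Between treated Lo and Hi cells 3 of the 23 were called lower or higher (RPA2, POLD3 and GINS4), where 22.3% of all genes were.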

How the data were processed

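Expression was measured on Affymetrix whole-transcript arrays in 12 samples, and the deposited values are log2 levels of probe sets. The authors computed them by RMA with Partek 6.5, per the submitters' processing notes, whose settings are not given in the sources used here. Detection calls were not used, which leaves the limit of detection unknown, and precision is limited by the number of arrays. Of 33297 probe sets, 19460 had 1 gene symbol, 1754 several and 12083 none. Identifiers were checked against RefSeq (GRCh38.p14), where 19429 were found. The brightest probe set of each symbol was kept, 18417 genes, with no further normalization or filter.

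The fit took all 12 arrays with 1 mean for each group (limma 3.58.1 in R 4.3.3, moderated by eBayes, residual degrees of freedom 8) and 5 contrasts, and was tested on simulated data. P-values measure the spread between replicates of 1 line. Alternatives left out each array or both doubted arrays, added the replicate block, or changed scaling, probe choice, filter or variance moderation. The members, lists and tests were chosen with earlier results of these data known. Values on every array are given, per role, for the 2 genes with the smallest p and the 1 with the largest in Lo pemetrexed against Lo control, and PCNA, chosen after its values were seen. Same-numbered arrays deviated together above r = 0.1 in 11 of 18 pairs, and in 13 of 13 with 10 arrays (0.115 to 0.543), where the deviations of the 2 remaining controls are equal and opposite. The pairing there comes from the labels' replicate numbers.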

Additional observations from a re-analysis of the deposited data

Results flagged for a closer look

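For 21 of the 56 replication genes the response to pemetrexed differed between Lo and Hi cells by the interaction test (limma, Benjamini-Hochberg adjusted p from 0.000524 for MCM6 to 0.0473 for MCM2). Given on the log2 scale, with the Hi change taken from the Lo change, helicase and origin genes stood at -1.68 (MCM6), -1.14 (MCM5), -0.78 (MCM3), -0.73 (MCM2), -1.39 (CDC45), -1.55 (GINS2), -0.79 (GINS1) and -0.77 (CDT1). Polymerase and primase genes stood at -1.42 (PRIM1), -1.33 (POLE2), -0.89 (POLA1), -0.64 (POLE) and -0.53 (POLD1). Genes of the fork and of its chromatin stood at -1.29 (RFC4), -1.18 (DNA2), -0.55 (RPA1), -0.96 (TIMELESS), -1.04 (UHRF1), -0.88 (CHAF1B), -0.74 (ASF1B) and -1.56 (TOP2A). Of these 21 calls, 13 remained in every fit that left out 1 array. The other 8 remained in fewer of the 12 fits, MCM2 in 3, POLE in 4, DNA2 in 6, ASF1B in 7, POLD1 in 9, and CDT1, GINS1 and RPA1 in 10. UHRF1 kept its call in all 12, but this call rested on its brightest probe set. With the mean over its probe sets the interaction of UHRF1 was -0.49 and did not pass (limma adjusted p = 0.0633).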

How the results depend on the processing

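The direction of every called replication gene was the same under each alternative run, and the counts are those of called genes among the 56. In Lo pemetrexed against Lo control the 33 calls, all lower, became 28 to 36 when single arrays were left out and 29 to 45 under the other alternatives. In the comparison of treated Lo and Hi cells the 30 calls became 23 to 33 without single arrays and 26 to 40 otherwise. In the interaction the 21 calls became 14 to 27 without single arrays, 14 being the count without Lo pemetrexed replicate 3. They became 10 without variance moderation, and 37 with the replicate block in the fit without both control replicates 3. With the block and all 12 arrays the counts were 37 in Lo cells, 33 between treated cells and 26 in the interaction, and 0 in Hi cells and between controls. The shares of all genes called were not counted for that fit. In the fit of 10 arrays the block also raised the share of all genes called lower in Lo cells, from 5.74% to 9.99%. The block was given to the 10 arrays as a pairing, where Lo control against Hi control had 10 calls, and 3 without the block. Under every other alternative that comparison had 0 calls, as did Hi pemetrexed against Hi control under all. Centring or quantile normalization moved the median of all genes by under 0.1.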
